A study of Mus musculus with 2 samples.

Results

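The genes described here are 8 genes of B cells, plasma cells and the transport of IgA: Pigr, Jchain (formerly Igj), Mzb1, Derl3, Pou2af1, Cd79a, Cd79b and Ms4a1. They were chosen by name, as the probes whose RefSeq accession maps to these symbols, and the rule uses no measured value, although the list was drawn up with earlier results of these data known. They are 8 of 22909 genes named on the array and have 9 probes, since Pigr has 2. The samples were RNA of whole colon of C57BL/6 mice, 8 weeks old by the methods, on 1-colour Agilent expression arrays. There was 1 array of Villin-Cre mice, the controls, and 1 array of Villin-Cre; EP4flox/flox mice (EP4 cKO). Both groups carry the Villin-Cre transgene, which makes Cre recombinase in the intestinal epithelium, and in EP4 cKO it removes a floxed part of Ptger4, the gene of the prostaglandin E2 receptor EP4, in epithelial cells only. By the labels each array held RNA combined from 3 pools of colon, so no spread between mice can be given. The design of 1 array for each genotype allows no test, and all values describe these arrays alone, with no replicate check.

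IgA is the main antibody of the gut lumen. Plasma cells beneath the epithelium assemble it as a dimer in the endoplasmic reticulum, where the J chain (Jchain) joins the units, Mzb1 helps the heavy chains fold and Derl3 takes part in removing misfolded protein. Epithelial cells then bind the dimer on their basal side with the polymeric immunoglobulin receptor (Pigr), carry it across and release it with a piece of the receptor. Of the other members, Cd79a, Cd79b and Ms4a1 mark the B cells before this stage. Cd79a and Cd79b form the signaling part of the B cell receptor, and Ms4a1 is the surface protein CD20. Pou2af1 is the coactivator that works with octamer-binding factors at immunoglobulin genes.

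Signals are given as normalized signal, that is the scanner's processed intensity scaled on each array to a trimmed mean of 2500, and ratios as EP4 cKO over Villin-Cre on the log2 scale. Of 56593 gene probes, 25683 (45.4%) were well above background on the Villin-Cre-labelled array and 29177 (51.6%) on the EP4 cKO-labelled array, by the flag of the scanner software. The lowest normalized signal among such probes was 125 and 57.8, respectively, so the Villin-Cre-labelled array showed fewer dim probes. A probe well above background on 1 array only has a bound ("at least"), its dim side being held at the higher of that lowest signal and its own. Bounds of 1 or less entered as a log2 ratio of 0. The 14669 genes with a value had a median log2 ratio of -0.10. Probes on both arrays had medians between -0.55 (the dimmest 10% by mean signal) and -0.04, with -0.10 for the brightest 10%. Ptger4 itself had a brighter probe with 6227 on the Villin-Cre-labelled array and 5661 on the EP4 cKO-labelled array, and a dimmer one with 393 and 592. On the EP4 cKO-labelled array neither probe was more than 2-fold lower. Whether they lie in the deleted part is not known here, and all directions below rest on the labels.

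The promoters of Pigr and of the 2 plasma cell genes Jchain and Derl3 are shown, since these are members with signal on the arrays and since the regulators of Pigr are described below. Each is the 250 bases before the start of the gene from RefSeq (GRCm38.p6), 5′ to 3′ on the gene's strand, at chr1:130826434-130826683 on the plus strand for Pigr, chr10:75893148-75893397 on the plus strand for Derl3 and chr5:88527898-88528147 on the minus strand for Jchain. Capitals mark CACGTG, an E box of the kind that the factors Usf1 and Usf2 can bind.
Pigr: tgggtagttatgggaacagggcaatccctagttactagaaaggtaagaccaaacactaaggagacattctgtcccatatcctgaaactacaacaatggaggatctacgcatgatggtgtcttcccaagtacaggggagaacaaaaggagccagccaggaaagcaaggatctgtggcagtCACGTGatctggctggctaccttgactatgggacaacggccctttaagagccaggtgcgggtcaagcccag
Derl3: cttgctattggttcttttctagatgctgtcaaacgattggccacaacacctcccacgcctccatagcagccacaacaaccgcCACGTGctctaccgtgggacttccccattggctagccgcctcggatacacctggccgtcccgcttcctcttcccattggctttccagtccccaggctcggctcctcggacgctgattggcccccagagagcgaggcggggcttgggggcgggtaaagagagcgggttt
Jchain: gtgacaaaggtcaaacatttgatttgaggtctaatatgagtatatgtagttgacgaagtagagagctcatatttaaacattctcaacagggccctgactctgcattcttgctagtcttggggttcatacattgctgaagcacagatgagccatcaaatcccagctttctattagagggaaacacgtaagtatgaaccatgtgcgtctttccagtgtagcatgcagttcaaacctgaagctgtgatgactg
The match began 71 bases before the start of Pigr and 168 bases before that of Derl3, and there was none in the windows of Jchain, Cd79a and Pou2af1, so 2 of the 5 member windows in the table held it. Of 32851 promoter windows in the table, 6.02% held CACGTG in the same 250 bases, a motif that was looked for after the sequences were seen. The octamer ATGCAAAT, which Pou2af1 acts on together with its partner factors, and an interferon element (GAAA, 2 bases of any kind and GAAA) were searched on both strands in windows of 300 bases. They were found in 1.74% and 3.44% of all windows, respectively, and in none of the 5 member windows in the table (Pigr, Jchain, Derl3, Cd79a and Pou2af1). A match or its absence describes these letters only.

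Pigr, the epithelial receptor, was bright on both arrays. Its brighter probe (A_55_P1960999) had a normalized signal of 620573 on the Villin-Cre-labelled array and 672294 on the EP4 cKO-labelled array. The log2 ratio was 0.12, a fold of 1.08, with an error of 0.20 from the scanner software's error of each spot, so the arrays differed by less than that error. The dimmer probe (A_55_P2645225) had 6268 and 4740, a log2 ratio of -0.40 with an error of 0.20. The probes of Pigr therefore ran in opposite directions, both within 2-fold, and the mean of their ratios was -0.14. Among the 12816 genes whose probe was well above background on both arrays, 28.7% had a higher ratio than the brighter Pigr probe, and the quartiles of those genes were -0.46 and 0.17. The errors given are those of the software's model for 1 spot on each array, so the spread between mice is not in them.

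**Figure D1:**
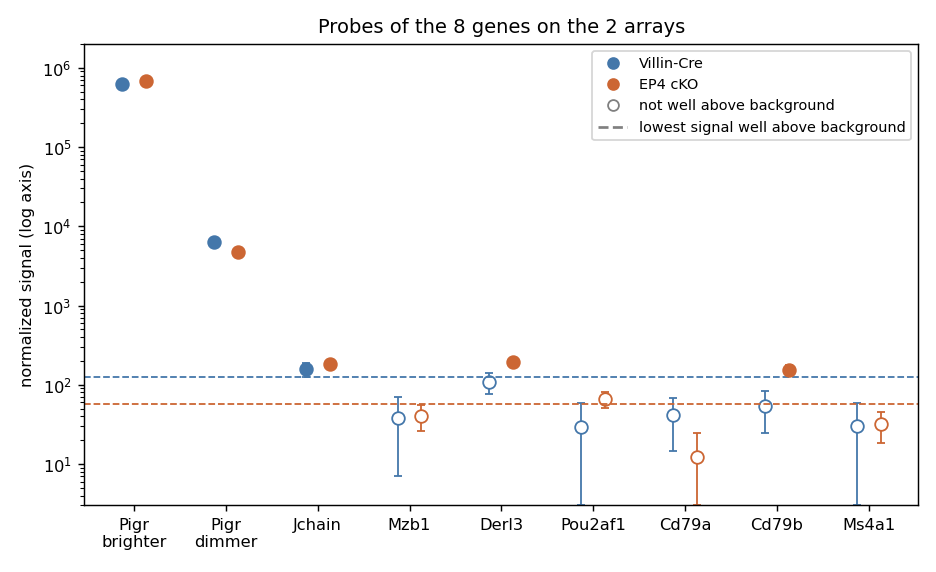
Normalized signal (log axis) of the 9 probes of the 8 genes on the Villin-Cre-labelled array (blue) and the EP4 cKO-labelled array (orange), with bars for the scanner software's error and dashed lines for the lowest signal well above background on each array (125 and 57.8). Filled points are well above background and open points are not: only Pigr and Jchain are filled on both arrays, and Derl3 and Cd79b are filled on the EP4 cKO-labelled array.

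Jchain, the joining chain of dimeric IgA, had a normalized signal of 156 on the Villin-Cre-labelled array and 181 on the EP4 cKO-labelled array. Both were well above background, the first close to the lowest such signal of its array (125) and the second further from it (57.8). The log2 ratio was 0.21, a fold of 1.16, with a software error of 0.34, and 22.8% of the genes measured on both arrays had a higher ratio. Probes as dim as this one ran lower on the EP4 cKO-labelled array, with a fitted trend of -0.51 at the mean signal of Jchain. With the trend subtracted its ratio was 0.73, still within 2-fold. The lowest signals well above background differ between the arrays, which can by itself lower the ratios of dim probes measured on both. How much of the trend this makes was not tested.

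Derl3 and Cd79b were well above background on the EP4 cKO-labelled array only. Derl3, of the degradation machinery of the endoplasmic reticulum, had 108 on the Villin-Cre-labelled array, where it was not well above background, and 195 on the EP4 cKO-labelled array. That is at least 1.56-fold higher, a log2 bound of 0.64. Cd79b, a signaling chain of the B cell receptor, had 53.6, not well above background, and 156, which is at least 1.24-fold higher, a log2 bound of 0.31. The genes well above background on the EP4 cKO-labelled array only were 6.53% of all genes, against 1.55% for the Villin-Cre-labelled array only, so genes that appear on 1 array were more often of this kind over the array as a whole. With the trend at low signal subtracted (-0.59 and -0.87 at their mean signals), the bounds were 2.35-fold for Derl3 and 2.27-fold for Cd79b, past 2-fold. The part of the unequal lowest signals (125 and 57.8) in this trend was not tested, so these values do not show a difference past 2-fold.

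Mzb1, Pou2af1, Cd79a and Ms4a1 were well above background on neither array and have no fold. Mzb1, the chaperone of plasma cells, had 38.5 on the Villin-Cre-labelled array and 40.7 on the EP4 cKO-labelled array. Pou2af1, the octamer coactivator, had 29.3 and 66.1. Cd79a, the partner of Cd79b, had 41.6 and 12.1. Ms4a1, which encodes CD20, had 30.3 and 31.7. The signal of Pou2af1 on the EP4 cKO-labelled array was 4.44 times its software error, and that of the other 3 was under 3 times the error on both arrays. Thus Cd79a and Cd79b, whose proteins form a pair, were not both measured on either array.

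Of the 8 genes, 2 were well above background on both arrays, where 55.9% of all genes lay, 2 on the EP4 cKO-labelled array only and 4 on neither, where 36.0% of all genes lay on neither. Of the 4 with a value, 0 were higher by more than 2-fold and 0 lower by more than 2-fold on the EP4 cKO-labelled array. Over all genes with a value, 4.86% were higher by more than 2-fold and 7.87% lower by more than 2-fold. The median log2 ratio of the 4 was 0.26, beside -0.10 over all genes, and it rests on 2 ratios and 2 bounds. Over the 2 genes on both arrays it was 0.16, beside -0.15 over all such genes, where 4.03% were higher by more than 2-fold and 6.23% lower by more than 2-fold. In RNA of a whole tissue, fewer cells of a type and less RNA per cell cannot be told apart.

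**Figure D2:**
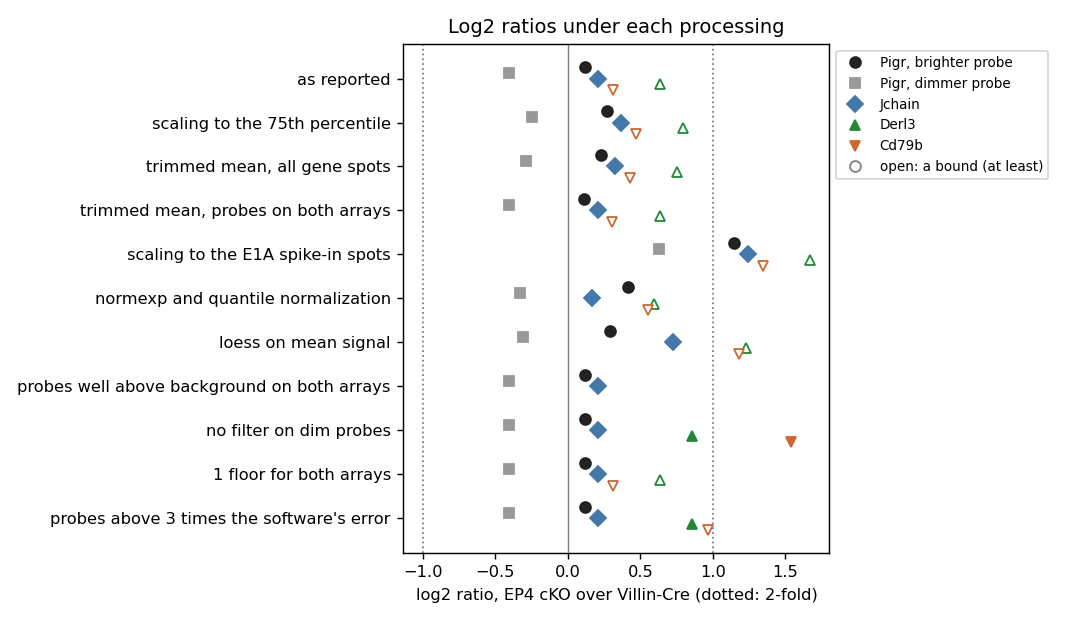
Log2 ratio (EP4 cKO over Villin-Cre) of the members with a value on the horizontal axis, under each processing named on the vertical axis, with dotted lines at 2-fold and open symbols for bounds. The brighter Pigr probe runs from 0.11 to 1.15 and the dimmer one lies below 0 except with scaling to the E1A control spots (0.63).

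The ratios of the members moved with the scaling of the arrays. The brighter Pigr probe had 0.27 with scaling to the 75th percentile, 0.29 after loess (the trend of the ratio with mean signal subtracted), 0.42 after normexp (a model of the background) with quantile normalization and 1.15 with scaling to the E1A spots, the spike-in control probes of the array. The dimmer probe had -0.25, -0.31, -0.33 and 0.63 under the same settings. Jchain had 0.37, 0.73, 0.16 and 1.24. The E1A spots moved the median of all genes by 0.96, nearly as much as they moved Pigr and Jchain, and the other 3 settings moved it by 0.10 to 0.14.

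Pigr was further set beside the genes that raise it. Interferon gamma, interleukin 4, interleukin 17, TNF and Toll-like receptor ligands are known to induce Pigr in epithelial cells. Of 21 genes of these routes, 20 had a value, all on both arrays, 4 were higher by more than 2-fold and 0 lower by more than 2-fold on the EP4 cKO-labelled array, with a median of 0.25. Among all genes on both arrays 4.03% were higher and 6.23% lower by as much, with a median of -0.15. Irf1, the interferon-induced factor that acts on the Pigr gene, had 29301 on the Villin-Cre-labelled array and 74994 on the EP4 cKO-labelled array, a log2 ratio of 1.36. Its dimmer probe was also higher, with 1.09. Il4ra, the receptor chain of interleukin 4 and interleukin 13, had 571 and 1615, a fold of 2.83. Tlr3, the receptor for double-stranded RNA, had 182 and 395, a log2 ratio of 1.12, which was 0.92 after normexp with quantile normalization. Neither Pigr probe was past 2-fold.

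The remaining inducers were within 2-fold. The receptor chains Ifngr1 and Ifngr2 had log2 ratios of 0.26 and 0.36. Usf1 and Usf2, the E box factors, had -0.27 and -0.47, while their dimmer probes had 0.04 and -0.02. Tnf was closest to 0 with 0.01 (472 and 477), although its dimmer probe was at least 1.07 higher on the log2 scale. Il17a was on neither array well above background.

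**Figure D3:**
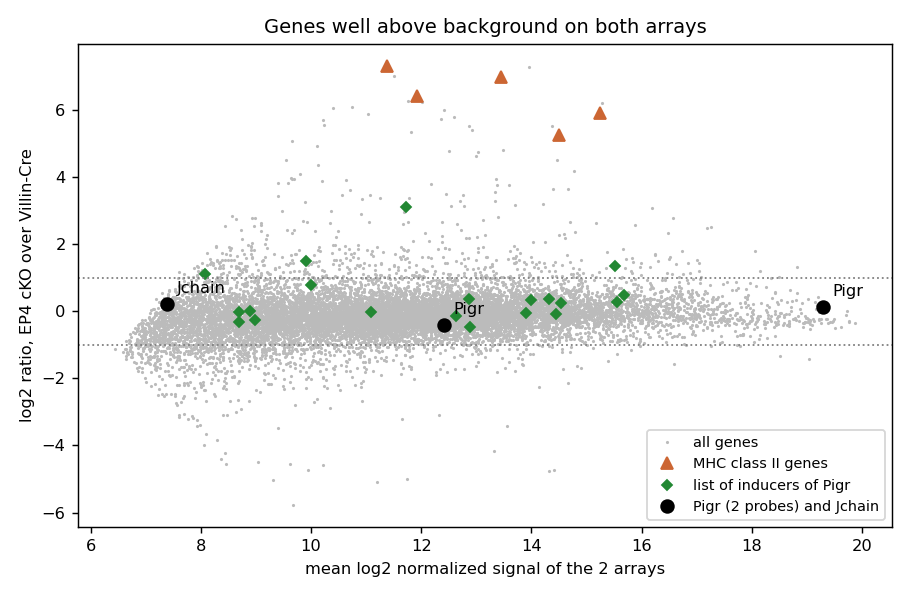
Log2 ratio (EP4 cKO over Villin-Cre) against the mean log2 normalized signal of the arrays, for the 12816 genes well above background on both (grey). The 2 Pigr probes and Jchain (black) lie between the dotted lines at 2-fold, while 4 genes of the list of inducers of Pigr (green) and the 5 MHC class II genes measured on both arrays (orange) lie above.

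The machinery that carries the receptor and its cargo across the cell was measured in full. All 13 genes of the list of transcytosis had a value on both arrays, with a median of 0.29, 1 of them higher by more than 2-fold and 1 lower by more than 2-fold, beside 4.03% and 6.23% of all genes on both arrays. Rab3b, a GTPase that binds the receptor, had 355 on the Villin-Cre-labelled array and 1158 on the EP4 cKO-labelled array, a log2 ratio of 1.71. Rab11fip5, an effector of the recycling GTPase Rab11, had 1744 and 613, a log2 ratio of -1.51, and -0.48 with scaling to the E1A spots. Rab11a, Rab25 and Rab17, GTPases of the recycling endosome, had 0.35, -0.18 and 0.30. The dimmer probes of Rab25 and Rab17 had -0.41 and 0.24. The motor Myo5b had 0.39, but its dimmer probe ran the other way with -0.26. Rab11b was closest to 0 with -0.07, a sign that flipped to 0.09 with scaling to the 75th percentile. Its other probes had 0.23 and 0.10.

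Of 12 receptors of immunoglobulins and relatives of Pigr, 7 had a value, none of them past 2-fold, with a median of 0.31, beside 4.86% higher, 7.87% lower and a median of -0.10 over all genes. Fcgrt, the neonatal Fc receptor that carries IgG, had 5798 and 3871, a log2 ratio of -0.58. Fcamr, the Fc receptor for IgA and IgM, was on neither array well above background. Cd300lg had -0.75, and Trem1 was closest to 0 with -0.19. The rest were higher: Trim21, Fcer1g, Tfrc and Cd300lf had 0.79, 0.63, 0.42 and 0.31.

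Of 20 genes of B cell identity, 9 (45%) were not well above background on either array, near the 36.0% of all genes, and 11 had a value. Of these, 0 were higher by more than 2-fold and 1 lower by more than 2-fold, with a median of 0, beside 4.86%, 7.87% and -0.10 over all genes. Ebf1, a factor of early B cells that is also made in stromal cells, had 588 on the Villin-Cre-labelled array and was not well above background on the EP4 cKO-labelled array, at least 10.2-fold lower, a log2 bound of -3.34 that was -2.23 with the same floor for both arrays, -2.31 with the E1A spots and -1.55 after normexp with quantile normalization. Pax5, the factor that keeps B cell identity, had 124 and 171, a log2 bound of 0.44. The 4 genes measured on both arrays were Cd22 (log2 ratio -0.55), Cd37 (-0.93), Cd180 (-0.88) and Spib (0.21, closest to 0), with a median of -0.72. The other 6 were on the EP4 cKO-labelled array only, where a bound cannot lie below 0.

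B cell receptor signaling had 16 of 20 genes with a value and a median of 0.42. Syk, the kinase that docks on Cd79a and Cd79b, was the only gene past 2-fold, with 5039 and 12151, a log2 ratio of 1.27, and its dimmer probe had 0.73. The mean of its probes was just within 2-fold, and 1 of 16 stands beside 4.86% of all genes higher by as much and 7.87% lower. Malt1 was closest to 0, with 0.01 for the brighter and 0.53 for the dimmer probe. Many of these genes, such as Syk, Lyn and Blnk (0.69), are also expressed outside B cells. Of the list of octamer factors and the germinal center, 5 of 10 genes had a value, with a median of -0.37. Pou2f1, an octamer factor found in most cells, was closest to 0 with -0.21, and Pou2f2, the one of B cells, was on neither array well above background.

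Of 16 plasma cell genes, 12 had a value, with 1 higher by more than 2-fold, 1 lower by as much and a median of 0.31, counts near the 4.86% and 7.87% of all genes. Prdm1, the factor that drives plasma cell maturation and is also made in epithelium and other lymphocytes, had 186 on the Villin-Cre-labelled array and 527 on the EP4 cKO-labelled array, a fold of 2.84. Eaf2, an elongation factor, had 29174 and 14295, a log2 ratio of -1.03, which was within 2-fold with scaling to the 75th percentile (-0.87) or over all spots (-0.91), just within it after loess, and 0.00 with the E1A spots. Cd38 had 0.97, which was past 2-fold with scaling to the 75th percentile (1.13) or over all spots (1.09). Xbp1, which expands the secretory apparatus, had 0.42, and its other probes had 0.46 and 0.44. Sdc1, which encodes CD138 and is also made by epithelium, was closest to 0 among genes with a measured ratio, at 0.16. On neither array were Irf4, Slamf7 and Tnfrsf17, the receptor BCMA of plasma cells, well above background.

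The chaperones that assemble antibody, which all secretory cells use, were well above background on both arrays in 14 of 15 cases. All 15 had a value, none of them past 2-fold, with a median of 0.21, where 4.86% of all genes were past 2-fold higher and 7.87% lower and the median was -0.10. Hspa5 (BiP), which holds unassembled heavy chains, had 0.47, and its other probes had 0.37 and 0.51. Sdf2l1 and Manf had 0.71 and 0.70, and Hsp90b1 was closest to 0 with 0.02. The relatives of Derl3 and their partners in degradation were also measured in full, with 18 of 18 genes, none past 2-fold against the same shares of all genes, and a median of -0.02, whose sign changed to 0.13 with scaling to the 75th percentile. Derl1 and Derl2 had -0.17 and -0.08 where Derl3 had a bound of 0.64. Herpud1 had 0.90, with 0.98 for its dimmer probe. It was past 2-fold with scaling to the 75th percentile (1.06) or over all spots (1.01). Vcp was closest to 0 with 0.02.

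**Figure D4:**
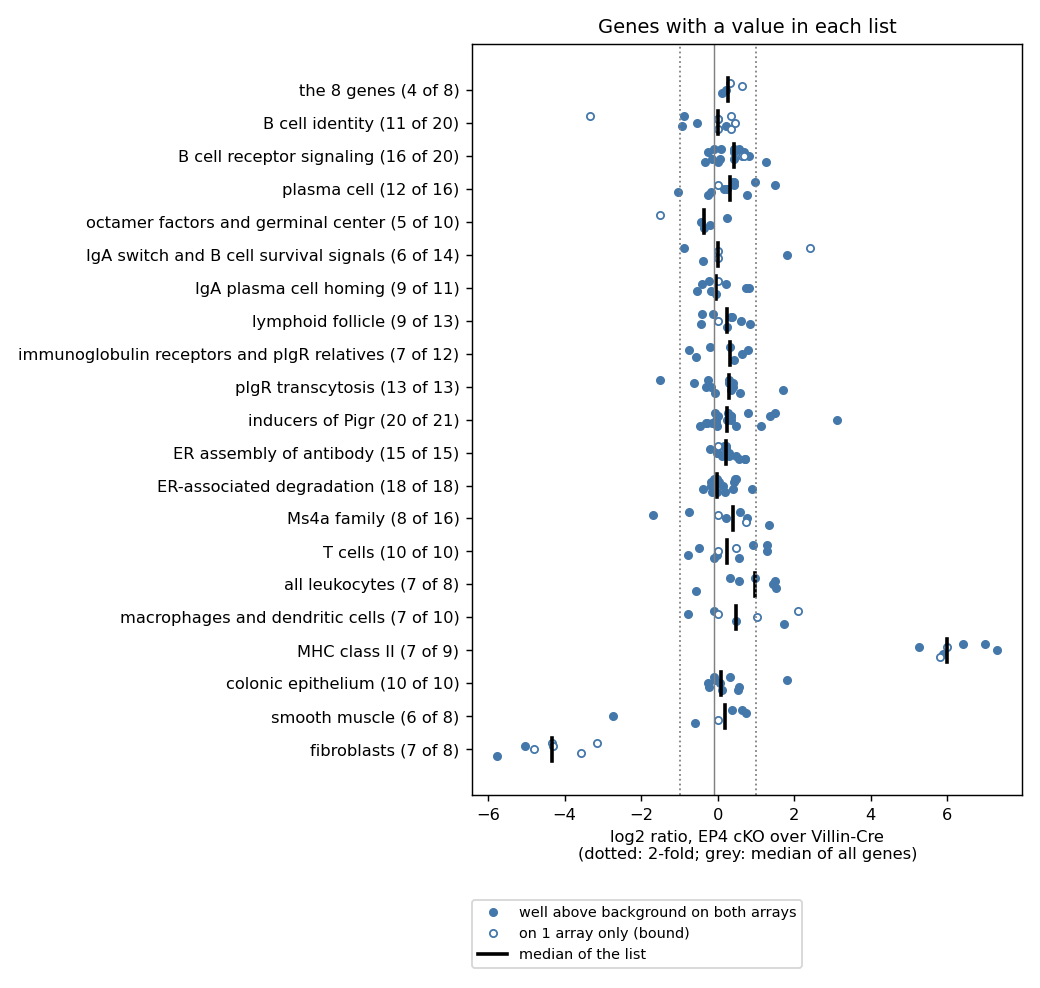
Log2 ratio (EP4 cKO over Villin-Cre) of every gene with a value in each list, with the number of genes with a value of those listed in parentheses, open points for bounds, a black bar for the median of the list, dotted lines at 2-fold and a grey line at the median of all genes (-0.10). The medians of the B cell, plasma cell and IgA lists lie between -0.37 and 0.42, those of MHC class II and of fibroblasts at 5.98 and -4.32.

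Among the signals for the switch to IgA and for B cell survival, 13 of 14 genes were on the array and 6 had a value. Of these, 2 were higher by more than 2-fold and 0 lower by as much, beside 4.86% higher and 7.87% lower over all genes. The median was 0, beside -0.10 over all genes, and it rests on Tgfb1 and Il21, which entered as 0. Over the 3 genes on both arrays the median was -0.38, beside -0.15 over all such genes. Tnfsf13b (BAFF), the survival factor of B cells, had 119 on the Villin-Cre-labelled array, not well above background, and 667 on the EP4 cKO-labelled array, at least 5.32-fold higher, a log2 bound of 2.41 that was 1.45 after normexp with quantile normalization. Nos2, the inducible nitric oxide synthase, had 1856 and 6536, a log2 ratio of 1.82. Neither lost its place past 2-fold under any scaling tried. Tgfbr2, a receptor of the TGF-beta that drives the switch, had -0.38, and 7 genes, among them Il5, Il6, Il10 and Cd40, were well above background on neither array.

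The genes that bring IgA plasma cells to the colon were within 2-fold (4.86% of all genes were past it higher and 7.87% lower), with 9 of 11 measured and a median of -0.05, which was 0 with scaling to the 75th percentile. Ccl28, the epithelial chemokine that draws them, had 5953 and 9891, a log2 ratio of 0.73, and its dimmer probe had 0.30. Its receptor Ccr10 was on neither array well above background, nor was Madcam1, the vascular address of the gut. Itgb7, a chain of the integrin that binds Madcam1, had 0.81, and Ccr7 was closest to 0 with -0.05, a sign that flipped to 0.10 with scaling to the 75th percentile. Genes of the lymphoid follicle had 9 of 13 with a value, none past 2-fold against the same shares of all genes, and a median of 0.23. Its chemokines Cxcl13, Ccl19 and Ccl21a were not well above background on either array, and Nfkb2 was closest to 0 with -0.12. Ltb had 0.85, which was past 2-fold with scaling to the 75th percentile (1.01) or after loess (1.08).

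Ms4a1 belongs to a family of membrane proteins. Of 14 other Ms4a genes on the array, 8 had a value, with a median of 0.40, 1 higher by more than 2-fold and 1 lower, beside 4.86% and 7.87% of all genes. Ms4a4b, a gene of T cells, had 251 and 638, a log2 ratio of 1.35, and Ms4a7, a gene of macrophages, had 618 and 191, a log2 ratio of -1.70, which was within 2-fold after normexp with quantile normalization (-0.88) and with the E1A spots (-0.66). Ms4a8a had 81085 and 136501, a log2 ratio of 0.75 and 1.21 for its dimmer probe, and Ms4a18 was closest to 0 with 0.21.

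Markers of other cells differed between the arrays as well, and their part in the values above was not tested. The counts that follow stand beside 4.86% of all genes more than 2-fold higher and 7.87% lower. All 10 markers of colonic epithelium, the tissue that makes Pigr, were well above background on both arrays, with a median of 0.08 and 1 of them, Krt20, more than 2-fold higher (1.80), and their summed signal was 2606130 on the Villin-Cre-labelled array and 3041980 on the EP4 cKO-labelled array. Its brightest genes Lgals4, Krt8 and Krt19 had -0.24, 0.05 and 0.32. All 10 T cell markers had a value, 2 of them more than 2-fold higher (0 after normexp with quantile normalization), with a median of 0.24 and summed signals of 24526 and 19749. The brightest, Cd247, Cd3e and Lck, had -0.50, -0.10 and -0.03, and the sign of the last 2 flipped with scaling to the 75th percentile. Of 8 markers of all leukocytes, 7 had a value and 3 were more than 2-fold higher, with a median of 0.97 and sums of 6959 and 12874. Coro1a, Cd52 and Arhgdib had 1.53, 1.43 and 0.31. Of 10 markers of macrophages and dendritic cells, 7 had a value and 3 were more than 2-fold higher, with a median of 0.48 and sums of 55145 and 73273. Itgam, Csf1r and Cd68 had 0.48, -0.79 and -0.09, the last of which flipped to 0.07 with scaling to the 75th percentile.

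Of 9 MHC class II genes, which B cells share with other antigen-presenting cells and with stimulated epithelium, 7 had a value and all 7 were more than 2-fold higher, with a median of 5.98 and sums of 10675 and 652834. Cd74, H2-Ab1 and H2-Eb1 had 6.99, 5.89 and 5.26. The markers of B cells named Cd79a and Ms4a1 were not well above background on the same array. Of 8 fibroblast markers, 7 had a value and all 7 were more than 2-fold lower, with a median of -4.32 (-3.20 with the same floor for both arrays and -2.45 after normexp with quantile normalization) and sums of 14793 and 330. Dcn, Col1a2 and Col3a1 had -5.77, -5.03 and a bound of -4.81. Of 8 markers of smooth muscle, 6 had a value and 1, Cnn1, was lower by more than 2-fold (-2.73), with a median of 0.19 and sums of 33051 and 47417. Acta2, Actg2 and Tagln had 0.62, 0.72 and 0.38, although a dimmer probe of Acta2 had -0.58. Myh11, a defining gene of smooth muscle, was on neither array well above background, and Des was so on the EP4 cKO-labelled array only, although the label of the tissue is colon.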

How the data were processed

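RNA of whole colon was measured on 2 Agilent mouse arrays (Cy3, 1 per genotype). The authors deposited scanner output made with Feature Extraction, whose version is 12.0.3.1 per the file headers and 11.5.1.1 per the labels. The deposited intensity used here is the processed signal, already corrected by that program for background and spatial trend but not scaled between arrays. Flags for control, outlier, saturated and dim spots were used as deposited. 0 gene spots were saturated.

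Of 62976 spots, 59305 were gene spots. Outlier spots of either array (Villin-Cre 147, EP4 cKO 126) were left out and spots of a probe averaged. Signals were divided by the trimmed mean (2% of the probes removed at each end, Villin-Cre 724, EP4 cKO 931) and multiplied by 2500, following the methods, which gives factors of 3.45 and 2.68. Probes were named by RefSeq accession through a table of GRCm38.p6, and 32989 of 56593 (58.3%) matched. The grid refers to an older assembly, so no probe coordinate is given. A gene is represented by the probe with the highest mean log2 signal. Over 289 probes with repeated spots the median SD of the log2 ratio was 0.035, which covers spots of 1 hybridization. The software error is that of its error model for each spot. The number of arrays limits the precision. The files pair no probe with an antibody chain gene, so those genes were not analysed here.

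The members and lists were chosen with earlier results of these data known. Named are all members with every probe, Ptger4, the genes of each pathway list past 2-fold (at most 5) and the gene with a measured ratio closest to 0, and the 3 brightest genes of each marker list; any other gene was chosen after its values were seen. Some genes that this rule names are not reported here. The alternatives were scaling to the 75th percentile, to a trimmed mean over all spots or over probes on both arrays, or to the E1A spots, normexp (offset 50, on the median spot signal) with quantile normalization, subtraction of a loess fit on mean signal (span 0.3), other filters on dim probes, the same floor for both arrays, the mean of a gene's probes, and thresholds of 1.5-fold and 3-fold. Counting a probe as measured where its signal exceeded 3 times the software error was chosen after seeing the data. Some of the steps were first tested on simulated signals. The tools were R 4.3.3 with limma 3.58.1 for normexp, and Python 3.11.15 with pandas 2.3.3 and numpy 2.4.6, statsmodels 0.14.6 for loess and matplotlib 3.10.9 for the figures.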

Additional observations from a re-analysis of the deposited data

How the results depend on the processing

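No paired analysis was possible because each genotype had 1 array, and no replicate could be left out. Of the 8 genes, 0 were more than 2-fold higher as reported, 4 with scaling to the E1A spots, 2 after loess, 2 with no filter on dim probes and 1 at 1.5-fold, and 0 under the other alternatives. 0 were more than 2-fold lower, except 1 (Cd79a, log2 ratio -1.78 from dim signals) with no filter. Their median of 0.26 was 0.42 with the 75th percentile, 0.38 over all spots, 1.29 with the E1A spots, 0.48 after normexp, 0.95 after loess, 0.16 with probes on both arrays, 0.16 with no filter and 0.21 with the added rule on the software error. Over all genes, calls past 2-fold numbered 713 higher and 1154 lower as reported. With the E1A spots it was 5676 and 331, after loess 1117 and 758, with no filter 1169 and 7213, at 1.5-fold 1444 and 2726, at 3-fold 324 and 533, and after normexp 615 and 388. The higher genes were 38.2% of these calls as reported, 50.8% with the 75th percentile, 47.6% over all spots, 61.3% after normexp, 59.6% after loess, 94.5% with the E1A spots and 13.9% with no filter. The median of all genes moved by 0.10 (75th percentile), 0.10 (all spots), 0.10 (normexp), 0.14 (loess), 0.96 (E1A) and -0.27 (no filter). The cause of these differences was not tested. Signal over background limits 4 of the 8 genes, which have no fold.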
